A study of Mus musculus with 13 samples.

Results

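The Notch ligands Jag1, Jag2, Dll1 and Dll4 were followed by bulk RNA sequencing of B16F10 tumours and of the lymph nodes that drain them (tdLN), each taken whole. The members were the 4 genes of these names whose Ensembl identifiers matched the GENCODE M21 annotation, out of 49315 gene identifiers in each count table. B16F10 is a pigmented mouse melanoma line, here injected into the skin of the flank of female mice. The libraries were 3 Foxp3Ctrl tumours, 3 Foxp3ΔJag1 tdLN and 3 Foxp3Ctrl tdLN. Foxp3ΔJag1 mice carry a tamoxifen-inducible Cre recombinase with eGFP at Foxp3 (Foxp3eGFP-Cre-ERT2) together with Jag1 fl/fl, so that recombination is limited to Foxp3-expressing cells, which are regulatory T cells. Foxp3Ctrl mice are listed as WT in the genotype label, whereas the protocol gives them the same Cre with Jag1 fl/wt. Tamoxifen was given to both genotypes 5 times, at 0.1 mg/g, when the mice were 6 to 8 weeks old. After 9 days without it, 200000 tumour cells in matrigel were injected at up to 11 weeks of age. The library names carry the same 3 mouse codes for the Foxp3Ctrl tumours and the Foxp3Ctrl tdLN. The 4 Foxp3ΔJag1 tumours of the labels were not analysed here.

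Notch signalling passes between touching cells. A ligand in the membrane of one cell binds a Notch receptor on its neighbour through the DSL domain near its N terminus, and its endocytosis pulls the receptor open. ADAM10 and γ-secretase then cut the receptor, and the freed intracellular part acts in the nucleus with the DNA-binding protein RBPJ. Jag1 and Jag2 encode the Jagged ligands and Dll1 and Dll4 the Delta-like ligands. In lymphoid organs stromal Dll1 is known for the maintenance of marginal zone B cells and Dll4 of the thymic epithelium for T-lineage commitment. In blood vessels Dll4 marks arterial and sprouting endothelium, and Jag1 is made by endothelium and mural cells.

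Jag1 lies on chromosome 2 (137081456 to 137116644, minus strand), Jag2 on chromosome 12 (112907819 to 112929776, minus strand), Dll1 on chromosome 17 (15367354 to 15376872, minus strand) and Dll4 on chromosome 2 (119325784 to 119335962, plus strand), all on GRCm38. Their merged exons span 5827, 6965, 4219 and 3852 bases in that order. RefSeq promoter windows on GRCm38.p6 matched 4 of 4 ligands. Bases before the first annotated base of the gene are shown for Dll1 and Jag1, the ligands that fell in tumours, and for Dll4, whose call depended on the fit, with CG dinucleotides in capitals.
Dll1 (chr17:15376933-15377182, minus strand): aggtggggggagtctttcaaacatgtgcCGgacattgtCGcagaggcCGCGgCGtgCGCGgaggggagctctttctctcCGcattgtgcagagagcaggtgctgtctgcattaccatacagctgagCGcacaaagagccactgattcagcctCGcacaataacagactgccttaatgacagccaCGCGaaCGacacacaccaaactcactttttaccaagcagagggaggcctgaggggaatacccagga
Jag1 (chr2:137116645-137116770, minus strand): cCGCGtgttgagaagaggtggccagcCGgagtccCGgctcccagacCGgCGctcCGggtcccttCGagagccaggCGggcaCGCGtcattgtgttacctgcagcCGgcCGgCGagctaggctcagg
Dll4 (chr2:119325534-119325783, plus strand): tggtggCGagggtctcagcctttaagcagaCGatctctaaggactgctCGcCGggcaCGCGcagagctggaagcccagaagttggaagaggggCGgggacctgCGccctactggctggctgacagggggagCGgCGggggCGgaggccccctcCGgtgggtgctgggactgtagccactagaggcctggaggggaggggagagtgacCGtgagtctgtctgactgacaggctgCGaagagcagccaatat

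The 250 bases before the start held 13 CG dinucleotides in this Dll1 window and 14 in that of Dll4, against a median of 6 over 27025 RefSeq promoters. The Jag2 window, which lies inside the gene as GENCODE draws it, stood further out, with 54 CG dinucleotides and a GC content of 87.2%, above 99.96% of promoters. The letters TGGGAA, the core of the RBPJ motif, were searched on both strands. They were in no window of the 4 ligands, a second start of Dll1 included, and in 21.5% of all promoters. The E-box letters CANNTG were in the Jag1 window and in both Dll1 windows, and in 66% of all promoters. The ETS core GGAA, which also lies inside TGGGAA, was in every window except that of Jag2, and in 93.4% of all promoters. As GENCODE draws the genes, the window of the second Dll1 start and part of the Jag1 window also lie inside them. Of the Jag1 window 126 bases are printed above, whereas the search covered all 250. The windows thus follow the RefSeq starts, which differ from the GENCODE starts here. The counts measure RNA, so the windows do not show what binds there.

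Total counts were between 32117478 and 40968494 in tumours and between 33157236 and 44540888 in nodes. Levels are given as CPM, the counts of a gene scaled to a common total per library. Marker genes followed the tissue labels. The 7 melanoma markers summed to between 17648 and 23066 CPM in Foxp3Ctrl tumours and between 10.8 and 36.5 CPM in Foxp3Ctrl tdLN. The 5 B cell markers summed to between 1.95 and 3.09 CPM in Foxp3Ctrl tumours and between 2519 and 2716 CPM in Foxp3Ctrl tdLN. Some nodes stood apart in tissue that a dissection can carry along. The 6 simple epithelial markers summed to 119 CPM in Foxp3Ctrl tdLN replicate 3, beside 7.48 to 32.3 CPM in the remaining nodes, and the 5 adipocyte markers to 97.2 CPM in Foxp3ΔJag1 tdLN replicate 1 and 67.5 CPM in Foxp3Ctrl tdLN replicate 3, against 1.53 to 3.41 CPM in the others.

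The first comparison asked whether ligand RNA differed between the draining nodes of Foxp3ΔJag1 and Foxp3Ctrl mice, the gene deleted in regulatory T cells being one of the ligands. None of the 4 ligands differed beyond the spread between nodes. Of 18440 genes tested with edgeR, 7 (0.038%) passed an adjusted p of 0.05 in either direction, 0.0325% higher and 0.00542% lower in Foxp3ΔJag1 tdLN. The 4 ligands were not among them, and 0 of the 4 had an unadjusted p under 0.05. The groups overlapped for all 4, whereas 7.29% of genes tested had groups apart, 4.11% higher and 3.18% lower in Foxp3ΔJag1 tdLN. None of the 4 passed with DESeq2 or limma-voom either.

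Jag1, the floxed gene, was at 27.8, 20.7 and 23.8 CPM in Foxp3ΔJag1 tdLN and at 22.0, 23.2 and 24.4 CPM in Foxp3Ctrl tdLN. The Foxp3ΔJag1 nodes held both the highest and the lowest value of the 6, so the groups overlapped. The fitted difference was a log2 fold change of 0.03 ± 0.11 (SE, n = 3 each; edgeR adjusted p = 0.984). Its 95% interval ran from a level 14.7% lower to one 22.3% higher in Foxp3ΔJag1 nodes. A larger loss of Jag1 from the whole node, relative to Foxp3Ctrl nodes, lies outside the interval. If these controls carry Jag1 fl/wt with the same Cre, as the protocol gives, the interval does not bound a difference from nodes without recombination. Regulatory T cells are one part of a node. Their 5 markers summed to between 179 and 206 CPM in Foxp3ΔJag1 tdLN and between 161 and 182 CPM in Foxp3Ctrl tdLN, with 0 of the 5 called. All 5 had a positive log2 fold change, with a median of 0.13, and their part in the Jag1 value was not tested. Counts are summed over the gene, so exons removed by Cre could not be looked at alone.

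Jag2, the second Jagged ligand, was at 14.7, 11.9 and 11.7 CPM in Foxp3ΔJag1 tdLN and at 13.0, 11.1 and 13.3 CPM in Foxp3Ctrl tdLN. The values of the groups were interleaved. The log2 fold change was 0.01 ± 0.13 (SE, n = 3 each; edgeR adjusted p = 0.995), with a 95% interval from -0.29 to 0.31. Leaving out Foxp3ΔJag1 replicate 1, the node with the highest Jag1, Jag2 and adipocyte values, turned the sign of both Jagged ligands, to log2 fold changes of -0.079 for Jag1 and -0.094 for Jag2, without a call.

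Dll1, the Delta-like ligand of lymphoid stroma, was at 9.48, 11.6 and 8.04 CPM in Foxp3ΔJag1 tdLN and at 7.08, 7.96 and 10.3 CPM in Foxp3Ctrl tdLN. Only Foxp3ΔJag1 replicate 2 lay above all control nodes. Its log2 fold change of 0.18 ± 0.18 (SE, n = 3 each; edgeR adjusted p = 0.953) had a 95% interval from -0.23 to 0.60. Among the 4 ligands it had the widest interval in this comparison.

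Dll4, the ligand of arterial and sprouting endothelium, was at 16.6, 14.8 and 15.3 CPM in Foxp3ΔJag1 tdLN and at 16.4, 21.3 and 14.4 CPM in Foxp3Ctrl tdLN. The Foxp3ΔJag1 nodes lay close together, and Foxp3Ctrl replicate 2 stood above all other nodes. That node also had the highest sum of the 12 blood endothelial markers, 1211 CPM against 914 to 1013 CPM in the other 5 nodes, and of the 7 lymphatic endothelial markers, 354 CPM against 101 to 208 CPM. Of the 12 blood endothelial markers 11 had a negative log2 fold change and 0 were called. Their part in the Dll4 value was not tested. Dll4 had a log2 fold change of -0.19 ± 0.16 (SE, n = 3 each; edgeR adjusted p = 0.953), and 0.0035 without Foxp3Ctrl replicate 2.

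**Figure D1:**
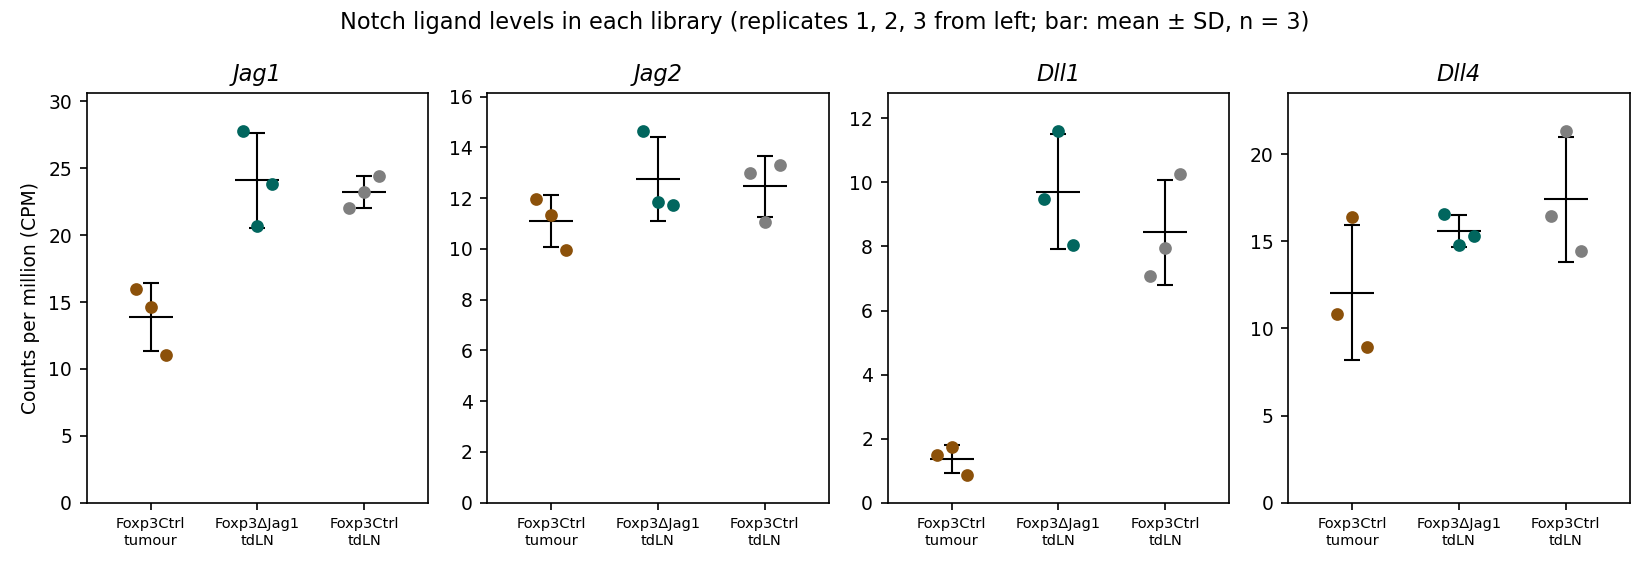
Level of each Notch ligand in CPM (vertical axis, from 0) in every library of Foxp3Ctrl tumours, Foxp3ΔJag1 tdLN and Foxp3Ctrl tdLN; points are libraries and bars the mean ± SD (n = 3). Dll1 lies between 0.872 and 1.73 CPM in tumours and above 7 CPM in all nodes, while the 2 node groups overlap for every ligand.

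The balance between ligands was described for the node genotypes, since with 3 against 3 libraries the smallest p an exact permutation test can give is 0.1 and no pair could pass. For each of the 6 pairs, the log2 ratio of the CPM of both ligands was taken within each library, which removes any common scaling. The mean log2 ratio of Jag1 to Dll4 was 0.62 ± 0.13 in Foxp3ΔJag1 tdLN and 0.43 ± 0.32 in Foxp3Ctrl tdLN (SD, n = 3 each), with a 2-sided exact permutation p of 0.5. The ratio of Dll1 to Dll4 was -0.70 ± 0.31 in Foxp3ΔJag1 tdLN and -1.04 ± 0.49 in Foxp3Ctrl tdLN (SD, n = 3 each; exact permutation p = 0.4). The other 4 pairs had an exact permutation p between 0.6 and 1. All 6 ratios overlapped between the genotypes, and the 12 pairs tested over both comparisons were adjusted together.

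The second comparison set Foxp3Ctrl tumours against Foxp3Ctrl tdLN and asked which ligands the tumour tissue carries relative to the node that drains it. Dll1 was 5.86-fold lower and Jag1 1.61-fold lower in tumours, and both calls passed the test. Jag2 and Dll4 did not pass it. This test had no block for the mouse that both tissues share, and with that block Dll4 passed. Of 18566 genes tested with edgeR, 73.2% passed in either direction and 37.6% were lower in tumours, so that 2 of 4 ligands called lower is not a result about the ligands as a set. The median log2 fold change was -0.58 over the 4 ligands and -0.05 over all genes tested. In bulk tissue, fewer cells of a type and less RNA per cell cannot be told apart.

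Dll1 was at 1.49, 1.73 and 0.872 CPM in Foxp3Ctrl tumours, from 56, 71 and 28 counts, and at 7.08, 7.96 and 10.3 CPM in Foxp3Ctrl tdLN, from 257, 343 and 364 counts. Every tumour lay below every node. The groups were apart in this direction for 41.5% of all genes tested, and in either direction for 77.9%. The log2 fold change was -2.55 ± 0.30 (SE, n = 3 each; edgeR adjusted p = 0.000118), and 13.1% of genes had a lower one. In the same 3 mice the tumour held 21.1%, 21.8% and 8.49% of the node's CPM. A lincRNA on the opposite strand, A930024N18Rik, shares 867 exon bases with Dll1. It had 1 to 5 counts in tumours and 26 to 35 in Foxp3Ctrl tdLN, and since the strand setting of the counting is not given in the sources used here, reads of the pair may not be separable.

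Jag1 was at 15.98, 14.6 and 11.1 CPM in Foxp3Ctrl tumours and at 22.0, 23.2 and 24.4 CPM in Foxp3Ctrl tdLN. The groups did not overlap, and the tumours were spread more widely than the nodes. Jag1 had a log2 fold change of -0.68 ± 0.16 (SE, n = 3 each; edgeR adjusted p = 0.00439), with a 95% interval from -1.04 to -0.32. Over 17 alternatives its log2 fold change lay between -0.82 and -0.51, and the highest adjusted p was 0.0281.

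Jag2 was at 11.96, 11.4 and 9.96 CPM in Foxp3Ctrl tumours and at 13.0, 11.1 and 13.3 CPM in Foxp3Ctrl tdLN. It was higher in the tumour than in the node of 1 mouse and lower in the other 2. Jag2 had a log2 fold change of -0.11 ± 0.14 (SE, n = 3 each; edgeR adjusted p = 0.515), with a 95% interval from -0.44 to 0.22.

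Dll4 was at 10.8, 16.4 and 8.94 CPM in Foxp3Ctrl tumours and at 16.4, 21.3 and 14.4 CPM in Foxp3Ctrl tdLN. The groups overlapped, because mouse 2 had the highest value in both tissues. Within each of the 3 mice the tumour was lower, at 65.9%, 76.8% and 62.0% of the node. How many of all genes were lower in each mouse was not counted, and 41.5% of genes tested had every tumour below every node. The log2 fold change was -0.48 ± 0.27 (SE, n = 3 each; edgeR adjusted p = 0.143). With the mouse as a block it was -0.50 ± 0.13 (SE; edgeR adjusted p = 0.0134), which passed. It also passed without Foxp3Ctrl tumour replicate 2 (-0.74, edgeR adjusted p = 0.0251) and without mouse 2 in both tissues (-0.56, edgeR adjusted p = 0.0485). The antisense transcript Gm14207, which shares 214 exon bases with Dll4, had 9 to 17 counts in tumours and 72 to 98 in Foxp3Ctrl tdLN.

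**Figure D2:**
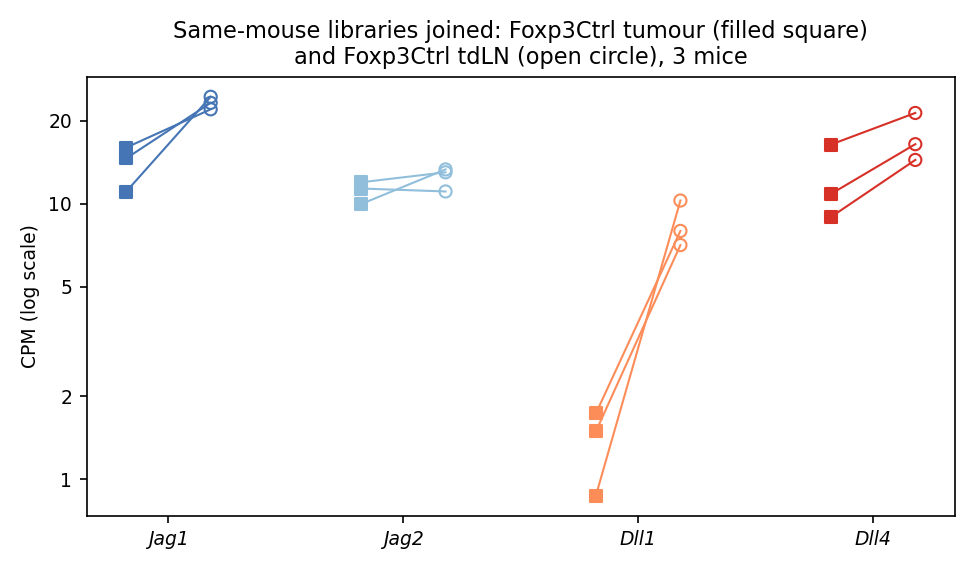
Ligand level in CPM on a log axis in the Foxp3Ctrl tumour (filled square) and Foxp3Ctrl tdLN (open circle) of the same mouse, joined by a line, for 3 mice. Jag1, Dll1 and Dll4 are lower in the tumour of 3 of 3 mice and Jag2 of 2 of 3. The share of all genes lower in every mouse was not counted, but 41.5% of genes tested had every tumour below every node.

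**Figure D3:**
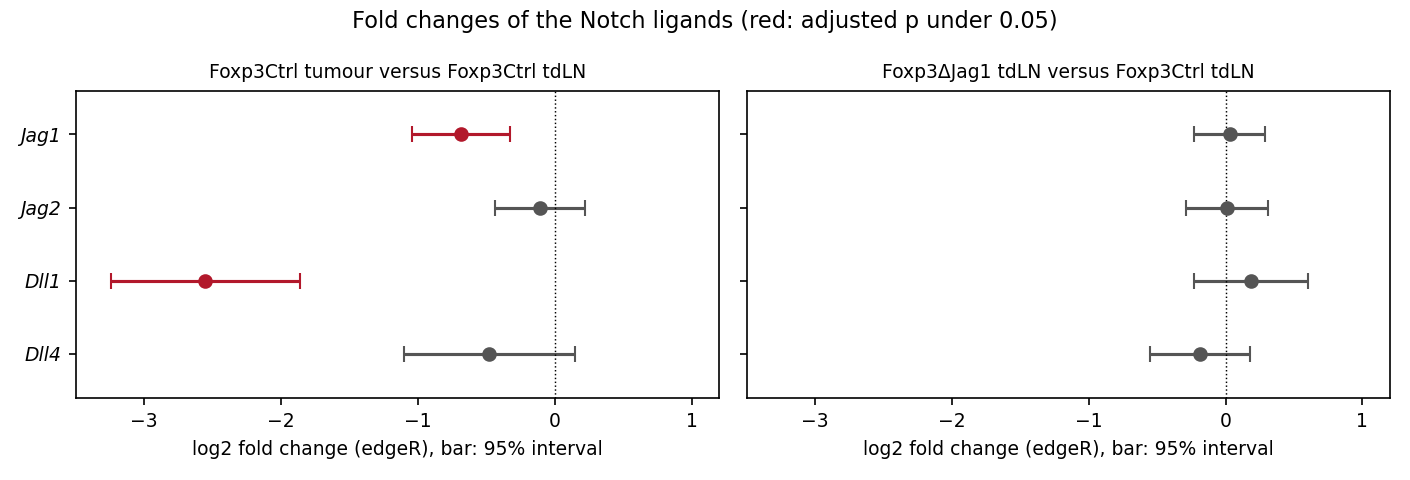
Log2 fold change of each ligand with its 95% interval (edgeR, horizontal axis) for Foxp3Ctrl tumour over Foxp3Ctrl tdLN on the left and Foxp3ΔJag1 tdLN over Foxp3Ctrl tdLN on the right; red marks an adjusted p under 0.05. Dll1 (-2.55) and Jag1 (-0.68) pass on the left, and every interval on the right includes 0. The fits shown have no block for the mouse, with which Dll4 also passes on the left.

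The ratio between ligands lay apart in the tissues for the 3 pairs that hold Dll1 and for Jag1 to Jag2, and again no pair could pass the test. Of single genes tested, 77.9% had groups apart in this comparison, and the 3 pairs with Dll1 share its difference. The pairs apart are therefore not a result about the ligands as a set. The mean log2 ratio of Jag1 to Jag2 was 0.31 ± 0.14 in Foxp3Ctrl tumours and 0.90 ± 0.16 in Foxp3Ctrl tdLN (SD, n = 3 each), and that of Jag1 to Dll1 was 3.39 ± 0.30 in Foxp3Ctrl tumours and 1.48 ± 0.20 in Foxp3Ctrl tdLN. Each of these 4 pairs had the smallest 2-sided p this exact permutation of libraries can give, 0.1, or 0.3 after Benjamini-Hochberg adjustment over 12 pairs. The permutation did not keep the tumour and node of a mouse together, so its p-values leave out that pairing. For Jag1 to Dll4 the ratio was 0.23 ± 0.37 in Foxp3Ctrl tumours and 0.43 ± 0.32 in Foxp3Ctrl tdLN (SD, n = 3 each; exact permutation p = 0.5), and for Jag2 to Dll4 it was -0.08 ± 0.39 in Foxp3Ctrl tumours and -0.47 ± 0.43 in Foxp3Ctrl tdLN (exact permutation p = 0.3).

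Markers of cell types known to make Notch ligands are given beside these values, and their counts called stand beside 73.2% called over all genes. Of 12 blood endothelial markers 8 were called lower and 1 higher in tumours, and they summed to between 537 and 717 CPM in Foxp3Ctrl tumours and between 914 and 1211 CPM in Foxp3Ctrl tdLN. Of 7 lymphatic endothelial markers 5 were called lower, with sums of 28.9 to 54.0 CPM in Foxp3Ctrl tumours and 101 to 354 CPM in Foxp3Ctrl tdLN. All 7 dendritic cell markers were called lower, with sums of 33.3 to 46.5 CPM in Foxp3Ctrl tumours and 304 to 324 CPM in Foxp3Ctrl tdLN. Of 7 fibroblastic reticular markers tested 3 were called higher and 3 lower, and the list summed to 1204 to 3426 CPM in Foxp3Ctrl tumours and 229 to 568 CPM in Foxp3Ctrl tdLN. The collagen genes Col1a1 (550 to 1626 CPM) and Col3a1 (560 to 1673 CPM) made up most of the tumour sum. Other markers of the list went the other way, such as Il7, at 0.366 to 0.639 CPM in Foxp3Ctrl tumours and 12.3 to 15.1 CPM in Foxp3Ctrl tdLN. The sum is therefore not a measure of reticular cells. Ccl21a of this list was at 0 in every tumour and at no more than 0.113 CPM in Foxp3Ctrl tdLN, from 1 to 4 counts. Its symbol matched more than 1 gene identifier, and these few counts were not taken as its level in nodes. Of 6 pericyte and smooth muscle markers 4 were called lower and 1 higher, with sums of 111 to 193 CPM in Foxp3Ctrl tumours and 246 to 329 CPM in Foxp3Ctrl tdLN. Their part in the ligand values was not tested.

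Set against the summed CPM of the 12 blood endothelial markers, Dll1 was lower in tumours than in Foxp3Ctrl tdLN whichever single marker was left out, and the other 3 ligands depended on which markers were summed. Dll4 came to 1.83 ± 0.402% of the endothelial sum in Foxp3Ctrl tumours and 1.70 ± 0.138% in Foxp3Ctrl tdLN, and Jag1 to 2.12 ± 0.121% in Foxp3Ctrl tumours and 2.31 ± 0.359% in Foxp3Ctrl tdLN (SD, n = 3 each). Jag2 came to 1.71 ± 0.137% in Foxp3Ctrl tumours and 1.25 ± 0.294% in Foxp3Ctrl tdLN, and Dll1 to 0.205 ± 0.0400% in Foxp3Ctrl tumours and 0.844 ± 0.229% in Foxp3Ctrl tdLN (SD, n = 3 each). With all 12 markers Jag2 was the higher and Dll1 the lower in every tumour, and Jag1 and Dll4 overlapped. In Foxp3ΔJag1 tdLN the 4 ligands came to 2.47 ± 0.385% for Jag1, 1.30 ± 0.153% for Jag2, 0.988 ± 0.143% for Dll1 and 1.59 ± 0.113% for Dll4, each overlapping with Foxp3Ctrl tdLN. Eng, an endothelial co-receptor for TGF-β family ligands, made up 50.1% to 58.9% of the sum in Foxp3Ctrl tumours and 11.7% to 13.8% in Foxp3Ctrl tdLN. Without Eng, Jag1 came to 4.60 ± 0.376% in Foxp3Ctrl tumours and 2.64 ± 0.412% in Foxp3Ctrl tdLN, and Dll4 to 3.97 ± 0.863% in Foxp3Ctrl tumours and 1.95 ± 0.177% in Foxp3Ctrl tdLN (SD, n = 3 each), with every tumour above every node. Pecam1, which encodes the adhesion molecule CD31, made up 6.66% to 8.86% of the sum in Foxp3Ctrl tumours and 36.4% to 41.8% in Foxp3Ctrl tdLN. Without Pecam1 the direction was the opposite, with Jag1 at 2.29 ± 0.157% in Foxp3Ctrl tumours and 3.84 ± 0.755% in Foxp3Ctrl tdLN and Dll4 at 1.98 ± 0.431% in Foxp3Ctrl tumours and 2.81 ± 0.176% in Foxp3Ctrl tdLN, and Jag2 overlapped. Dll1 was apart, and lower in tumours, in all 12 sums of 11 markers. How many of all genes lie apart in such ratios was not counted. On CPM 77.9% of genes tested had tumours and nodes apart, so ratios apart are not particular to the ligands. These ratios are descriptions without a test, and the sums of 11 markers were added after seeing the data. No other cell type was used as the reference. The lymphatic endothelial markers had a mean sum of 39.0 CPM in Foxp3Ctrl tumours and 221 CPM in Foxp3Ctrl tdLN. For the dendritic cell markers the mean sums were 41.4 CPM in Foxp3Ctrl tumours and 314 CPM in Foxp3Ctrl tdLN. Dll1 relative to these sums was not tested, so its lower ratio is described for the blood endothelial markers only.

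**Figure D4:**
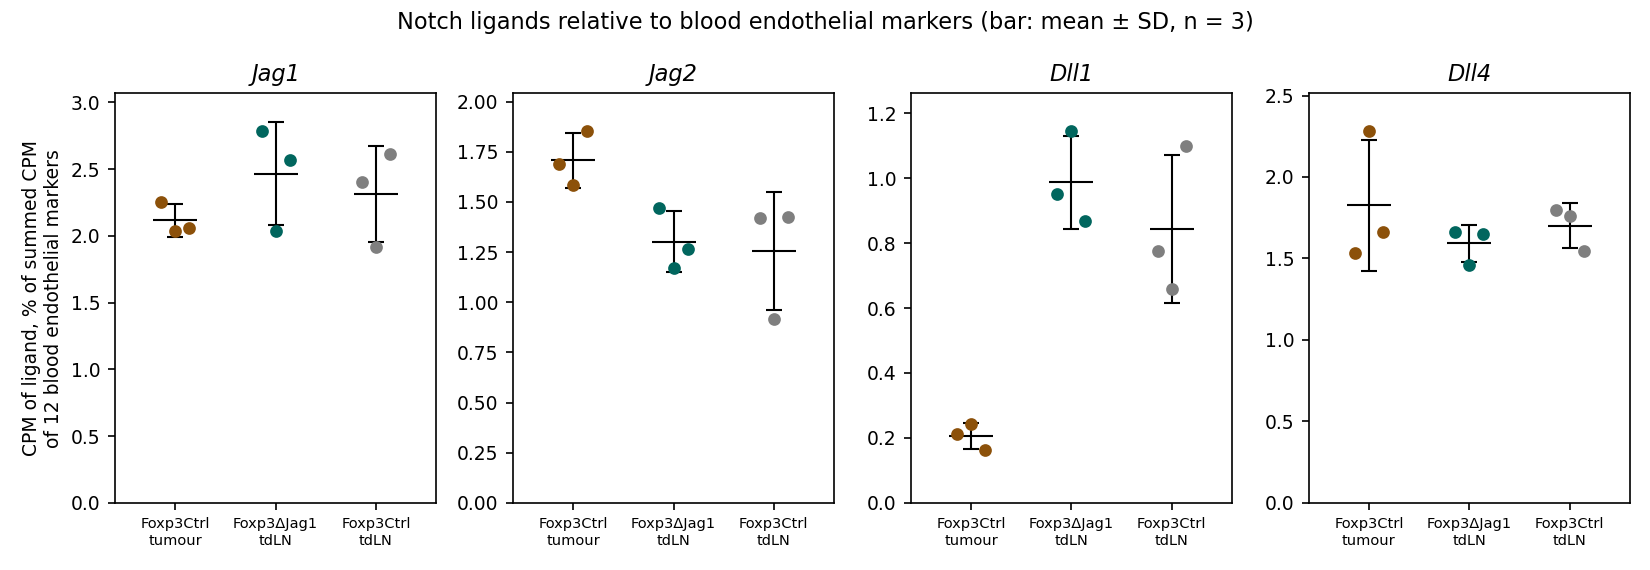
CPM of each ligand as a percent of the summed CPM of 12 blood endothelial markers in the same library (vertical axis, from 0), for Foxp3Ctrl tumours, Foxp3ΔJag1 tdLN and Foxp3Ctrl tdLN; points are libraries and bars the mean ± SD (n = 3). Dll1 is lower in tumours (0.205%) than in Foxp3Ctrl tdLN (0.844%), also with any single marker left out. On CPM 77.9% of all genes tested had tumours and nodes apart. The overlap of Jag1 and Dll4 holds for the 12 markers together and is lost without Eng or without Pecam1.

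Levels of different ligands were compared as CPM per kb of merged exon. In Foxp3Ctrl tumours the order was Dll4 (3.13 ± 1.00), Jag1 (2.38 ± 0.436), Jag2 (1.59 ± 0.147) and Dll1 (0.324 ± 0.105 CPM per kb; SD, n = 3). In Foxp3ΔJag1 tdLN it was Jag1 (4.13 ± 0.614), Dll4 (4.04 ± 0.237), Dll1 (2.30 ± 0.426) and Jag2 (1.83 ± 0.237 CPM per kb). In Foxp3Ctrl tdLN it was Dll4 (4.52 ± 0.925), Jag1 (3.98 ± 0.208), Dll1 (2.00 ± 0.390) and Jag2 (1.79 ± 0.174 CPM per kb). The ranges of Dll4 and Jag1 overlapped in all 3 groups, as did those of Dll1 and Jag2 in both node groups. Within libraries, Dll4 lay above Jag1 in every Foxp3Ctrl tumour, and Dll1 above Jag2 in every Foxp3ΔJag1 tdLN. The order of Dll4 and Jag1 changed between libraries in both node groups, and that of Dll1 and Jag2 in Foxp3Ctrl tdLN. These orders were not tested. Per kb of coding length, Dll4 lay above Jag1 in every library of the 3 groups. On that scale their ranges were apart in Foxp3Ctrl tdLN alone, at 8.45 ± 1.73 and 6.35 ± 0.331 CPM per kb (SD, n = 3). Jag1 and Jag2 overlapped in tumours by range, with Jag1 above Jag2 within each tumour. In nodes both leading ligands lay above Dll1 and Jag2 in every library, and in tumours Jag2 lay above Dll1 in every library.

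The 4 ligands together came to 7.43 ± 1.48 CPM per kb in Foxp3Ctrl tumours, 12.3 ± 0.974 in Foxp3ΔJag1 tdLN and 12.3 ± 0.708 in Foxp3Ctrl tdLN (SD, n = 3 each). Dll1 made up 4.28 ± 0.648% of this sum in Foxp3Ctrl tumours, 18.8 ± 3.87% in Foxp3ΔJag1 tdLN and 16.3 ± 3.07% in Foxp3Ctrl tdLN. The share of Jag1 was 32.3 ± 3.74% in Foxp3Ctrl tumours, 33.5 ± 3.10% in Foxp3ΔJag1 tdLN and 32.5 ± 1.75% in Foxp3Ctrl tdLN. Jag2 made up 21.8 ± 3.02% in Foxp3Ctrl tumours and 14.6 ± 2.10% in Foxp3Ctrl tdLN, and Dll4 41.6 ± 5.97% in Foxp3Ctrl tumours and 36.6 ± 6.07% in Foxp3Ctrl tdLN. Shares sum to a whole within a library, so a lower share of Dll1 raises the others.

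**Figure D5:**
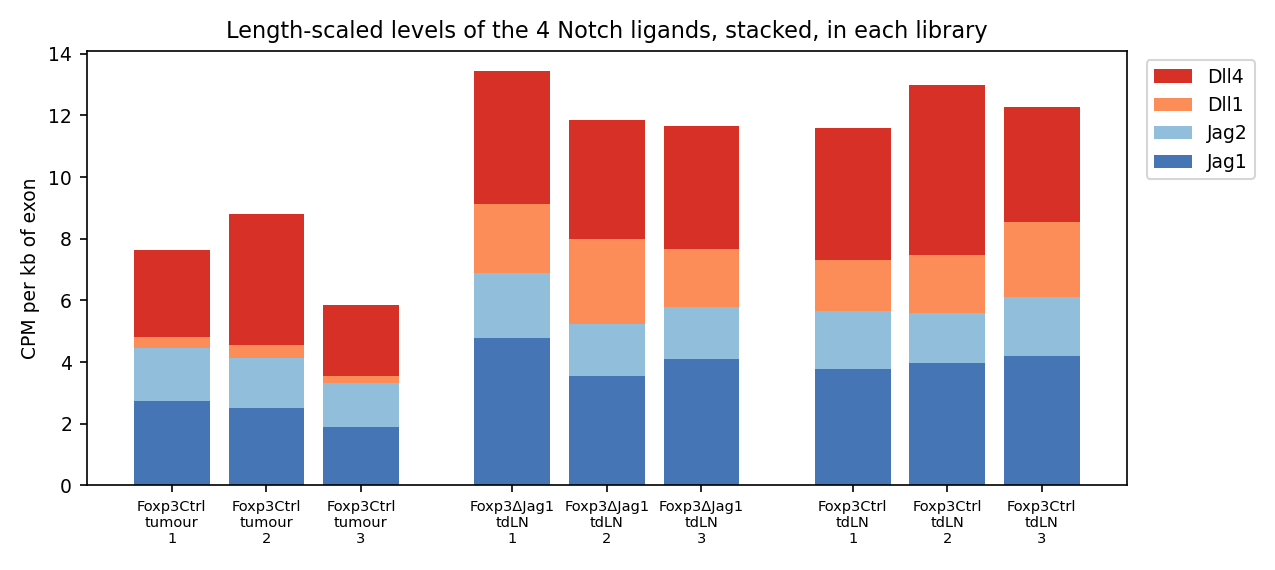
Length-scaled levels of Jag1, Jag2, Dll1 and Dll4 (CPM per kb of exon, vertical axis) stacked for each library of Foxp3Ctrl tumours, Foxp3ΔJag1 tdLN and Foxp3Ctrl tdLN. The tumour stacks reach 5.85 to 8.80 and the node stacks 11.6 to 13.4 CPM per kb, and the Dll1 layer is thin in tumours.

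Across the 6 nodes the ligands did not move as one. Pearson's r of log2(CPM + 1) was 0.66 between Jag1 and Jag2, 0.08 between Jag1 and Dll4, -0.04 between Jag1 and Dll1 and -0.52 between Dll1 and Dll4 (n = 6 libraries that share a dissection and a total count per library). The genes with the pattern most like each ligand were taken as the 3 with the highest r among 11048 protein-coding genes. For Dll4 they were the potassium channel gene Kcnj10 (r = 0.996), the RNA-binding protein gene Mex3d (r = 0.995) and Pttg1ip (r = 0.995). Kcnj10 was at 9.35, 8.41 and 8.62 CPM in Foxp3ΔJag1 tdLN and 9.50, 13.6 and 8.01 CPM in Foxp3Ctrl tdLN, with the same node highest as for Dll4. For Dll1 they were the cytokine receptor-like gene Crlf3 (r = 0.990), Clybl (r = 0.984) and Dpp4, which encodes the surface peptidase CD26 (r = 0.982). Dpp4 was at 116, 128 and 108 CPM in Foxp3ΔJag1 tdLN and 97.7, 101 and 122 CPM in Foxp3Ctrl tdLN. For Jag1 they were Arhgap27 (r = 0.988), the TRAIL decoy receptor gene Tnfrsf22 (r = 0.976) and E430018J23Rik (r = 0.975), and for Jag2 Pcyox1l (r = 0.989), the zinc transporter gene Slc30a9 (r = 0.979) and the thymidine kinase gene Tk1 (r = 0.976). With 6 libraries and this many genes, values as high as these were picked by the ranking itself.

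The rest of the pathway was taken from a list of 39 genes of receptors, other ligands, ligand endocytosis, receptor processing, glycosylation, nuclear partners and targets. In Foxp3ΔJag1 against Foxp3Ctrl tdLN 36 were tested with edgeR, 0 passed and 2 had an unadjusted p under 0.05, and 0 passed with DESeq2 or limma-voom. These 2 were the target gene Hes5, at 2.65 ± 0.336 CPM in Foxp3ΔJag1 tdLN and 1.45 ± 0.0521 CPM in Foxp3Ctrl tdLN, and the γ-secretase subunit gene Aph1b, at 4.09 ± 0.263 CPM in Foxp3ΔJag1 tdLN and 5.63 ± 0.365 CPM in Foxp3Ctrl tdLN (SD, n = 3 each; edgeR adjusted p = 0.953 for both). The median log2 fold change was -0.01 over the list and -0.0045 over all genes tested. The share of all genes with an unadjusted p under 0.05 was not counted, so Hes5 and Aph1b are not a result about the pathway.

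In Foxp3Ctrl tumours against Foxp3Ctrl tdLN 37 of the 39 were tested, 13 were called higher and 18 lower with edgeR, which is 83.8% beside 73.2% of all genes. The called genes with the smallest p that were higher in tumours were Dlk2, Psen2 and Mib1. Dlk2, a Delta-like relative without a DSL domain, was at 10.3 ± 2.31 CPM in Foxp3Ctrl tumours and 0.472 ± 0.0280 CPM in Foxp3Ctrl tdLN (SD, n = 3 each; edgeR adjusted p = 2.81e-06). Psen2, a catalytic γ-secretase subunit, was at 358 ± 18.5 CPM in Foxp3Ctrl tumours and 98.0 ± 9.05 CPM in Foxp3Ctrl tdLN. Mib1, the ubiquitin ligase that drives ligand endocytosis, was at 118 ± 7.78 CPM in Foxp3Ctrl tumours and 76.2 ± 1.67 CPM in Foxp3Ctrl tdLN. Those lower in tumours were Neurl3, a member of the Neuralized ubiquitin ligase family, the Notch regulator Dtx1 and the Fringe glycosyltransferase gene Mfng. Neurl3 was at 11.7 ± 1.92 CPM in Foxp3Ctrl tumours and 153 ± 12.1 CPM in Foxp3Ctrl tdLN, Dtx1 at 0.653 ± 0.313 CPM in Foxp3Ctrl tumours and 157 ± 16.2 CPM in Foxp3Ctrl tdLN, and Mfng at 6.93 ± 1.11 CPM in Foxp3Ctrl tumours and 80.2 ± 3.36 CPM in Foxp3Ctrl tdLN (SD, n = 3 each). Of the other ligands on the list, Dll3 and Dner were too low to be tested, and Dlk1, named after its values were seen, was called higher in tumours (edgeR adjusted p = 0.000377), at 2.41 CPM in Foxp3Ctrl tumours and 0.162 CPM in Foxp3Ctrl tdLN.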

How the data were processed

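Whole nodes and tumours were profiled, per the labels' protocols from RNA with an integrity score over 9. The authors deposited whole-number read counts per gene, not normalized, with 1 table for nodes and 1 for tumours. Per the submitters' processing notes they used Trimmomatic 0.36, STAR 2.5.2b and featureCounts (Subread 1.5.2) with GRCm38. The annotation counted on and its strandedness setting were not given in the sources used here. Counts from 9 of 13 labelled samples were used. A further 3 columns matched no label and were left out of every step. Per the labels, batch 1 holds every sample.

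The members, lists and tests were chosen with earlier results of these data known. CPM values were computed from the deposited counts and their totals, without scaling factors. Genes were tested with edgeR 4.0.16 (quasi-likelihood, robust, TMM, filterByExpr) in R 4.3.3 on the 6 libraries of each comparison, with Benjamini-Hochberg adjustment over all genes tested; alternatives included DESeq2 1.42.0 and limma-voom (limma 3.58.1). All 4 ligands passed the filter in both comparisons. Symbols, positions and exon lengths came from GENCODE M21 (49056 of 49315 identifiers matched). Named genes were the ligands, the pathway genes with the smallest p (3 called per direction, or 2 where none was called) and the 3 genes most like each ligand with a mean of at least 5 CPM in nodes.

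Replicates of a group differed by more than sampling noise (chi-square per degree of freedom of at least 18.8). Library names carry different mouse codes within a group; p-values measure the spread between these libraries. Foxp3Ctrl tumours and tdLN of the same number come from the same mouse by their names, and deviations from the group means correlated at -0.03, 0.14 and 0.07. The count test was tested on simulated data beforehand.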

Additional observations from a re-analysis of the deposited data

How the results depend on the processing

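Jag1, Jag2 and Dll1 in tumour against node kept their direction and their side of the threshold under all 17 alternatives, with log2 fold changes of -0.82 to -0.51, -0.18 to -0.0029 and -2.78 to -2.20. Dll4 lay between -0.74 and -0.26 and passed under 3, the mouse as a replicate block (-0.50), without tumour replicate 2 (-0.74) and without mouse 2 in both tissues (-0.56), the last kind of setting being chosen after seeing the data. In the node comparison no ligand passed under any of 14 alternatives. Leaving out single nodes gave -0.079 to 0.12 for Jag1 (-0.0060 without Foxp3Ctrl replicate 1), -0.094 to 0.080 for Jag2 (-0.053 without Foxp3Ctrl replicate 2), 0.03 to 0.32 for Dll1 and -0.33 to 0.0035 for Dll4. Over all genes in nodes, 7 calls (6 higher, 1 lower) became 44 with DESeq2 (20 and 24), 16 without a filter (13 and 3) and 11 with the replicate number as a block (5 lower), and 2 were lower with limma-voom. Without single nodes the calls were 6 to 21, with 5 to 13 higher and 1 to 10 lower; the cause was not tested. Same-numbered nodes of both genotypes share a number only. With the mouse as a block in tumour against node, 13375 genes passed in place of 13583 and 30 pathway genes in place of 31, and Dll4 was the one ligand whose call changed. Pathway genes called higher in tumours were 8 to 12 without single libraries or mice. With coding in place of exon length, the share of Jag1 was 29.8% in Foxp3ΔJag1 tdLN and 28.9% in Foxp3Ctrl tdLN, and Dll4 led in all 3 groups, apart from Jag1 in Foxp3Ctrl tdLN. Protein sequences to set the coding length were not used here. Dll1 in tumours rests on 28 to 71 counts a library, the thinnest depth here.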
